A study of Mus musculus with 3 samples.

Results

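Mt1, Mt2 and Mt3 are the metallothionein genes of the mouse that had UMIs in these tumour-infiltrating T cells, 3 of the 31053 genes in the count table. They were taken by symbol, and each symbol matched 1 gene of the table. They were chosen by earlier readings of their UMI counts and tag contrasts in the same cells, so their levels are described here and no test supports them. The cells came from subcutaneous tumours of C57BL/6 mice. One pool held T cells of MC38-Ova tumours, a colon carcinoma line that carries ovalbumin, and the other held T cells of B16-Ova tumours, a melanoma line that carries the same antigen. Both pools were taken on day 14, sorted as TCRB+ CD3+ CD90.2+ and CD11b-, marked with hashtag 2 (MC38-Ova) or hashtag 1 (B16-Ova), and run together in 1 droplet capture. Antibody tags read PD1, TIM3 and biotin, and the biotin tag reports L-Pha, a plant lectin that binds branched N-glycans on the cell surface. How many mice each hashtag stands for is not given in the sources used here, so each tumour is 1 pool and cells are not replicates.

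Metallothioneins are small, cysteine-rich proteins that bind zinc and copper ions. Mt1 and Mt2 are expressed in most tissues, and their transcription is driven by the zinc-sensing factor MTF1 through metal response elements and also by glucocorticoids, oxidative stress and hypoxia. Mt3 is best known from neurons, where it also limits neurite outgrowth, and Mt4 is known from stratified epithelium. In mouse tumour-infiltrating CD8 T cells, Mt1 and Mt2 have been linked to dysfunction, which is why their relation to PD1, TIM3 and activation states is of interest.

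The 3 genes lie in 1 cluster on the plus strand of chromosome 8, in the GRCm38 build. Mt4 (94137197 to 94139031), Mt3 (ENSMUSG00000031760, 94152607 to 94154146), Mt2 (ENSMUSG00000031762, 94172664 to 94173568) and Mt1 (ENSMUSG00000031765, 94179082 to 94180327) follow each other within 43131 bases. The promoters are shown because the members share a cluster yet did not share 1 pattern over cells. Each run is the RefSeq sequence of GRCm38.p6 from 250 bases before to 50 bases after the RefSeq start, plus strand, at chr8:94178839-94179138 for Mt1, chr8:94172368-94172667 for Mt2 and chr8:94152357-94152656 for Mt3. Capitals mark every match, on either strand, of TGCACNC or TGCGCNC, the core of the metal response element, where N is any base. No matches overlapped each other.
Mt1: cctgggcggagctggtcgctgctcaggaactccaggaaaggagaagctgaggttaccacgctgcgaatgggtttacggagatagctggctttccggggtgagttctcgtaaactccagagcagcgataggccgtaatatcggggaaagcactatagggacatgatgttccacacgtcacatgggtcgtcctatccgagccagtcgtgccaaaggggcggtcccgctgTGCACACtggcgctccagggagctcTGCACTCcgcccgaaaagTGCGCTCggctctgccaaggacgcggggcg
Mt2: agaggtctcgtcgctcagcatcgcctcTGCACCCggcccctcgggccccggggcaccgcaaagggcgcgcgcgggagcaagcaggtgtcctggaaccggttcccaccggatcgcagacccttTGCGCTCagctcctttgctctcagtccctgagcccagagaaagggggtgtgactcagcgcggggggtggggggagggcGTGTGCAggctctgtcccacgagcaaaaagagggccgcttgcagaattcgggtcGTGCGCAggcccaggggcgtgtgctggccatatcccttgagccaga
Mt3: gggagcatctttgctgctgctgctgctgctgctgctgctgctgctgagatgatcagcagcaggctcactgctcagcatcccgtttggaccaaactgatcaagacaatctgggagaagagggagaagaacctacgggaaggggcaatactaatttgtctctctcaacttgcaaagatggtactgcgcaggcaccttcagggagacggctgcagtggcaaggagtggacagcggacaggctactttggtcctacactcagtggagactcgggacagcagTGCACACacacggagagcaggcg
The Mt1 window held 3 matches, the Mt2 window 4 and the Mt3 window 1. Of 32851 RefSeq promoter windows of this length, 25.7% held at least 1 match, 1.97% at least 3 and 0.517% at least 4. The letters of Mt1 and Mt2 were therefore in the uncommon tail of promoter windows, and the single match of Mt3 was not. A match is a run of letters and does not show binding of any factor.

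The table held 19912 barcodes and 169579110 RNA UMIs, from 500 to 111658 per barcode (median 5942.5). A UMI counts 1 captured RNA molecule. With at least 500 genes, at most 10% mitochondrial UMIs, and 1 hashtag at 150 or more and at 3 or more times the other, 14992 cells remained, 8407 of MC38-Ova and 6585 of B16-Ova. Raw UMIs of lineage genes put 8797 of them in 4 classes. CD8 cells numbered 2544 in MC38-Ova and 1792 in B16-Ova, regulatory T cells (Treg, Foxp3+) 960 and 777, other CD4 cells 736 and 753, and innate-like cells with Fcer1g or Tyrobp 780 and 455. Most markers that the class rule did not use were highest in the class they name in both pools, and Ccl5 and Icos were not. Ccl5, listed for CD8 cells, stood at 4556 CPM in innate-like and 4205 CPM in CD8 cells of MC38-Ova, and Icos, listed for CD4 cells, at 1386 and 1013 CPM in MC38-Ova and B16-Ova Treg cells, against 930 and 846 CPM in CD4 cells. Tnfrsf4 stood at 1516 and 1577 CPM (counts of the summed cells scaled to 1000000 UMIs) in MC38-Ova and B16-Ova Treg cells, against at most 702 CPM elsewhere, and Klra7 at 506 and 336 CPM in innate-like cells, against at most 91.1 CPM elsewhere. Cd3e lay between 856 and 1284 CPM in all 8 class and pool groups. Another 6195 cells fitted no class, and 2926 of these had Cd8 UMIs together with Cd4 or Foxp3 UMIs. These values are summed over cells, so that fewer expressing cells and less RNA per cell cannot be told apart from the CPM alone. Shares of cells are therefore given beside it, after each cell was thinned to 2000 UMIs.

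Mt1 was the most counted member. The 14992 cells held 26656 Mt1 UMIs in 4185 cells, 4775 Mt2 UMIs in 1321 cells and 3098 Mt3 UMIs in 1678 cells, and no barcode held a UMI of Mt4. UMIs are counted once per molecule and were not scaled by transcript length. The longest stretch shared by annotated transcripts was 27 bases, between Mt1 and Mt3. An antisense gene, Gm45774, overlaps 749 bases of Mt2 and had 7 UMIs.

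Treg cells held the highest Mt1 and Mt3 levels of the 4 classes in both tumours. Mt1 stood at 356 CPM in MC38-Ova Treg cells (exact Poisson 95% interval 342 to 371) and at 183 CPM in B16-Ova Treg cells (173 to 195). In CD8 cells it was 93.4 CPM in MC38-Ova and 163 CPM in B16-Ova, in CD4 cells 130 and 86.6 CPM in MC38-Ova and B16-Ova, and in innate-like cells 73.0 CPM in MC38-Ova and 182 CPM in B16-Ova. In B16-Ova, the innate-like level (166 to 200) overlapped the Treg level within counting error. At 2000 UMIs per cell, 20.7% of MC38-Ova and 15.7% of B16-Ova Treg cells had an Mt1 UMI. The share was 9.70% and 12.6% in MC38-Ova and B16-Ova CD8 cells, 9.80% and 6.82% in CD4 cells of the same pools, and 5.05% and 6.01% in their innate-like cells. By shares, the order in both pools put Treg cells first and innate-like cells last, while the exact 95% intervals of CD4 and CD8 cells overlapped in MC38-Ova, and those of innate-like and CD4 cells and of CD8 (11.1% to 14.2%) and Treg cells (13.0% to 18.6%) overlapped in B16-Ova.

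Mt2 followed Mt1 at lower counts. It stood at 64.9 CPM in MC38-Ova and 25.1 CPM in B16-Ova Treg cells, at 15.3 and 27.4 CPM in CD8 cells of MC38-Ova and B16-Ova, at 22.6 and 6.89 CPM in their CD4 cells and at 19.5 and 25.1 CPM in their innate-like cells. Mt3, the metallothionein best known from brain, was at 43.4 CPM in MC38-Ova and 35.7 CPM in B16-Ova Treg cells and at 12.6 and 22.1 CPM in CD8 cells of the same pools. It was at 14.5 CPM in MC38-Ova and at 18.5 CPM in B16-Ova CD4 cells. In innate-like cells Mt3 was nearly without counts, at 2.95 CPM in MC38-Ova and 3.09 CPM in B16-Ova, and at most 2 UMIs were found in 1 cell. By CPM, CD8 and Treg cells stood above innate-like cells in Mt3 in both pools beyond counting error, while the thinned shares of CD8 cells (1.49% in MC38-Ova and 2.90% in B16-Ova) overlapped those of innate-like cells (0.776% and 1.11%).

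**Figure D1:**
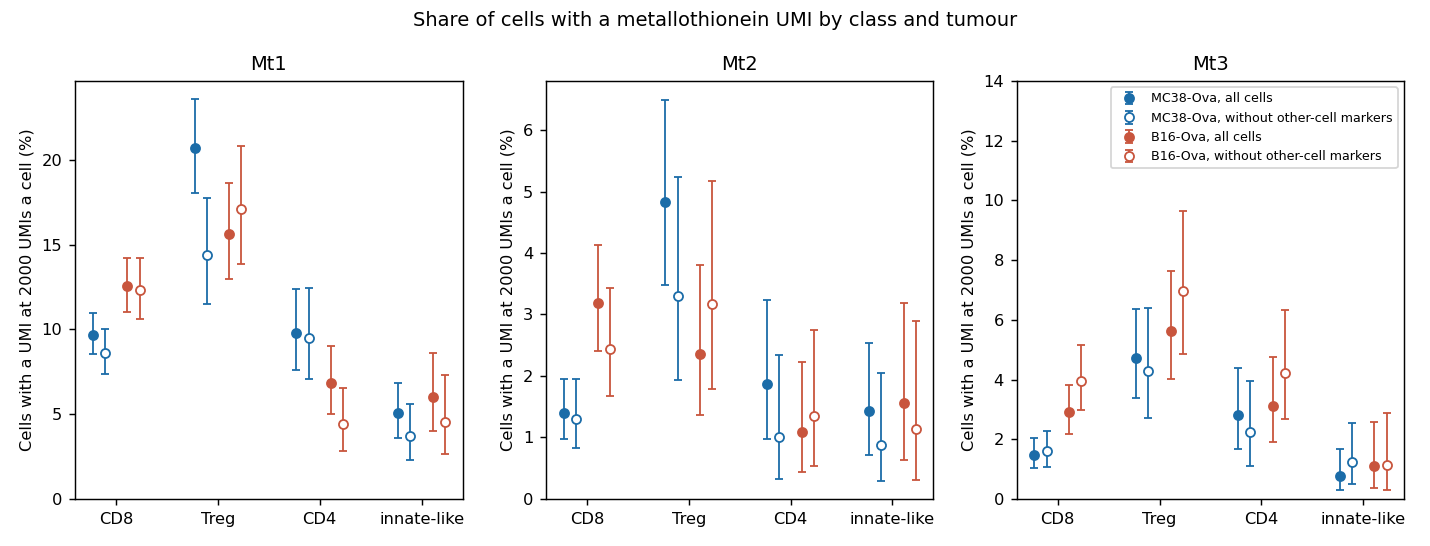
Share of cells with a UMI of Mt1, Mt2 and Mt3 at 2000 UMIs per cell (y axis, %) by class and pool, for all cells (filled) and without barcodes that hold other-cell markers (open), with exact Clopper-Pearson 95% intervals that cover counting error only. Open values come from a separate draw of 2000 UMIs per cell. Over all cells, Treg cells have the highest Mt1 share (20.7% in MC38-Ova and 15.7% in B16-Ova) and innate-like cells the lowest (5.05% and 6.01%).

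The UMIs of Mt1 sat in few cells. In CD8 cells, 1940 of 2544 in MC38-Ova and 1263 of 1792 in B16-Ova had no Mt1 UMI. The 1% of cells with the most held 39.0% of the Mt1 UMIs in MC38-Ova and 40.1% in B16-Ova CD8 cells, and in innate-like cells they held 73.6% and 88.6%. A single B16-Ova innate-like cell had 393 of the 473 Mt1 UMIs of its group, and its melanoma markers (a list of 6 genes such as Pmel and Dct) summed to 11952 CPM. Single barcodes also decided the CD4 values, where 1 B16-Ova cell held 183 of 314 Mt1 UMIs. Without the richest 1%, innate-like Mt1 was at 20.2 CPM in MC38-Ova and at 21.9 CPM in B16-Ova. Of the Mt3 UMIs, the richest 1% of cells held 41.7% in MC38-Ova and 20.8% in B16-Ova CD8 cells, and 39.7% and 26.8% in Treg cells of the same pools, where they held 31.5% and 35.1% of the Mt1 UMIs. By the richest 1%, Mt3 was thus spread more evenly than Mt1 in B16-Ova but not in MC38-Ova. By the richest 10% of B16-Ova cells it was not, with 84.2% of Mt3 and 82.5% of Mt1 UMIs in CD8 cells. In B16-Ova Treg cells the richest 10% held 79.5% and 78.7%.

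Cells with the most Mt1 often carried RNA of other cell types in MC38-Ova, and less often in B16-Ova. Of the cells with 20 or more Mt1 UMIs, a limit chosen after the values were seen, 30 MC38-Ova Treg cells had a summed fibroblast list of 2180 CPM and a melanoma list of 1510 CPM, and 9 B16-Ova Treg cells had a macrophage list of 7075 CPM. In CD8 cells the 15 such MC38-Ova cells had a fibroblast list of 956 CPM, and the 19 B16-Ova cells a melanoma list of 5615 CPM. Over whole groups, these lists were far lower. The fibroblast list was at 248 CPM in MC38-Ova and 3.65 CPM in B16-Ova Treg cells, the macrophage list at 98.5 and 295 CPM in Treg cells of MC38-Ova and B16-Ova, and the melanoma list at 30.6 and 248 CPM in their CD8 cells. Neutrophil and mast cell markers had at most 5 UMIs in any CD8 or Treg group. Summed lists can rest on few barcodes. Of the cells with 20 or more Mt1 UMIs, 26 of 30 Treg and 11 of 15 CD8 cells of MC38-Ova had 2 or more other-cell UMIs. In B16-Ova 3 of 9 Treg and 8 of 19 CD8 cells did (33.3% and 42.1%), beside 25.7% and 22.6% of cells with 0 Mt1 UMIs. Barcodes with both a T cell and another cell were not called, and the part of such barcodes in each level was not tested.

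Barcodes with melanoma, fibroblast or macrophage markers held more Mt1 and Mt2 and less Mt3 than the 4 T cell classes pooled, although their Mt3 was above that of innate-like cells. Across the 8797 cells of the 4 T cell classes, Mt1, Mt2 and Mt3 stood at 151, 25.2 and 19.6 CPM. In 131 barcodes with 5 or more melanoma-list UMIs, Mt1 stood at 1854 CPM, Mt2 at 234 CPM and Mt3 at 3.69 CPM. In 116 barcodes by the fibroblast list the values were 1629 CPM for Mt1, 543 CPM for Mt2 and 6.99 CPM for Mt3, and in 253 barcodes by the macrophage list they were 1149, 142 and 13.4 CPM. By the dendritic list, 209 barcodes had 465, 57.5 and 36.2 CPM. Barcodes under 500 genes had 243 CPM of Mt1, 44.6 CPM of Mt2 and 10.8 CPM of Mt3, and 12.6%, 2.79% and 0.723% of them held a UMI at a median depth of 617 UMIs. They can hold free RNA, broken cells or shallow T cells, and the part of each was not tested. Of these 968 barcodes, 369 had a Cd3e UMI. The Mt1 level of CD8 cells was below that of these barcodes (206 to 284 CPM) in both pools. So were the Mt1 levels of CD4 and innate-like cells in both pools and of B16-Ova Treg cells (183 CPM). MC38-Ova Treg cells stood above it at 356 CPM, but below it at 167 CPM when barcodes that hold other-cell markers were left out. A share of T cells with 1 Mt1 UMI can therefore not be told apart from free RNA, in Treg cells as in CD8 cells. The Mt3 levels of Treg cells (43.4 CPM in MC38-Ova and 35.7 CPM in B16-Ova) were above the Mt3 interval of barcodes under 500 genes (4.33 to 22.2 CPM).

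**Figure D2:**
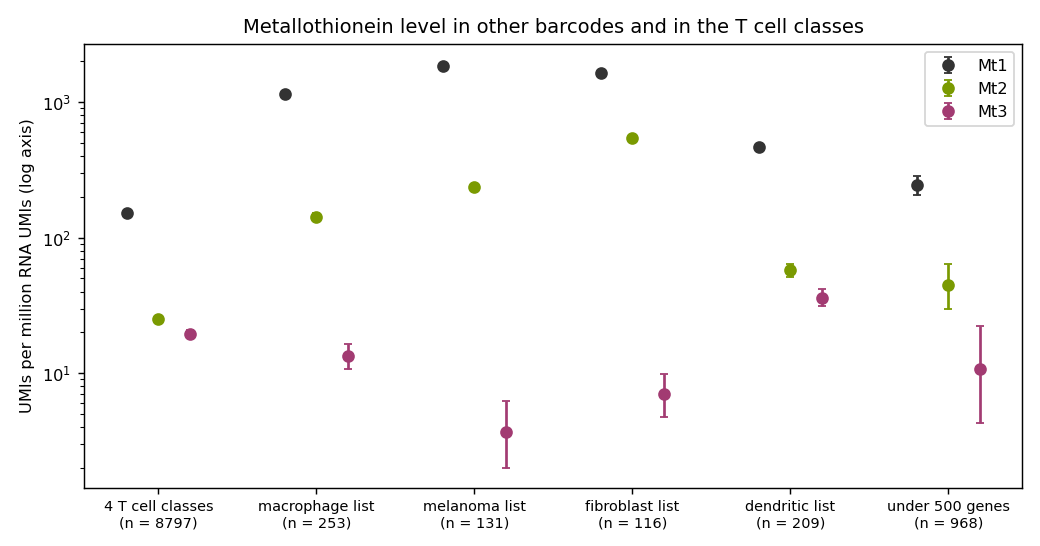
CPM of Mt1, Mt2 and Mt3 (log axis) in the 4 T cell classes, in barcodes with 5 or more UMIs of the macrophage, melanoma, fibroblast or dendritic list, and in barcodes under 500 genes, with exact Poisson 95% intervals. Mt1 and Mt2 are highest in the melanoma-list and fibroblast-list barcodes, where Mt3 is at 3.69 and 6.99 CPM.

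Every level was also taken without barcodes that had 2 or more UMIs of any other-cell list (hereafter, cells without other-cell markers). That left 1866 MC38-Ova and 1370 B16-Ova CD8 cells, and 607 MC38-Ova and 554 B16-Ova Treg cells. In them Mt1 stood at 167 CPM in MC38-Ova and 186 CPM in B16-Ova Treg cells, at 66.1 and 132 CPM in CD8 cells of MC38-Ova and B16-Ova, and at 93.7 and 29.1 CPM in their CD4 cells. Innate-like cells were at 20.5 CPM in MC38-Ova and 21.3 CPM in B16-Ova. Mt3 hardly moved, with 41.5 and 38.2 CPM in MC38-Ova and B16-Ova Treg cells and 10.9 and 24.1 CPM in their CD8 cells.

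By CPM, MC38-Ova and B16-Ova differed in opposite ways in CD8 and Treg cells. In CD8 cells all 3 members were lower in MC38-Ova, with MC38-Ova over B16-Ova ratios of 0.573 for Mt1 (exact conditional 95% interval 0.541 to 0.608), 0.560 for Mt2 (0.484 to 0.646) and 0.572 for Mt3 (0.487 to 0.671). None of the 3 was past 2-fold in CD8 cells, where 3.68% of the genes with at least 100 UMIs were. In cells without other-cell markers the ratios were 0.499, 0.353 and 0.452 for Mt1, Mt2 and Mt3, and the share of CD8 cells with an Mt3 UMI was 1.59% in MC38-Ova and 3.96% in B16-Ova. The B16-Ova share was 52 of 1313 cells in its own draw of UMIs, beside 50 of 1725 in the draw of all cells. A rise of the share by leaving out barcodes can therefore not be read from these values. In Treg cells Mt1 was 1.94 times (1.81 to 2.09) and Mt2 2.59 times (2.14 to 3.15) as high in MC38-Ova as in B16-Ova, and Mt3 1.22 times (1.01 to 1.46). The share of Treg cells with an Mt3 UMI ran the other way, at 4.71% in MC38-Ova and 5.61% in B16-Ova (4.28% and 6.98% without other-cell markers), with overlapping intervals. Mt2 was past 2-fold there, as were 3.01% of genes. Without other-cell marker barcodes the Treg ratios were 0.898, 1.12 and 1.09 for Mt1, Mt2 and Mt3, so the higher Mt1 of MC38-Ova Treg cells was not seen in the remaining cells. That step left out 353 MC38-Ova and 223 B16-Ova Treg cells. CD4 cells had Mt1, Mt2 and Mt3 ratios of 1.5, 3.28 and 0.787, with Mt2 the 1 member past 2-fold (1.64% of genes), and innate-like cells had 0.400, 0.777 and 0.956, with Mt1 past it (1.76% of genes). The innate-like Mt3 ratio rests on 23 UMIs. Without the richest 1% of cells the Mt1 ratio was 2.35 in CD4 and 0.923 in innate-like cells. Each tumour was 1 pool, so none of these ratios has a replicate check.

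Metallothionein levels went with the L-Pha tag in CD8 and Treg cells of both tumours. Cells were split in quartiles of biotin-tag UMIs within each class and pool. In MC38-Ova CD8 cells Mt1 stood at 55.4, 64.9, 73.8 and 140 CPM over the quartiles in rising order of L-Pha. B16-Ova CD8 cells had 22.5, 53.2, 155 and 268 CPM of Mt1 over the same quartiles. Both series climbed, and the B16-Ova one spanned the wider range. In Treg cells Mt1 was at 152, 203, 267 and 544 CPM in MC38-Ova and at 42.5, 98.3, 275 and 219 CPM in B16-Ova, with the third and the top quartile of B16-Ova in reverse order. Mt3 climbed over the 4 quartiles in both classes. It stood at 2.99, 9.30, 11.7 and 19.3 CPM in MC38-Ova CD8 cells and at 4.50, 8.25, 27.3 and 31.3 CPM in B16-Ova CD8 cells. In Treg cells Mt3 was at 4.30, 19.1, 36.2 and 71.1 CPM in MC38-Ova and at 12.1, 24.1, 32.5 and 52.0 CPM in B16-Ova.

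Top over bottom L-Pha quartile, Mt1 was 2.53 times as high in MC38-Ova and 11.9 times in B16-Ova CD8 cells. For Mt2 the ratios were 4.01 in MC38-Ova and 10.2 in B16-Ova. Those of Mt3 were 6.46 in MC38-Ova (3.41 to 13.7) and 6.95 in B16-Ova (3.81 to 14.1). All 3 members were past 2-fold in both pools, as were 2.32% of the 8853 genes with enough counts. In Treg cells the ratios in MC38-Ova and B16-Ova were 3.58 and 5.15 for Mt1, 4.97 and 5.55 for Mt2, and 16.5 and 4.29 for Mt3, where the MC38-Ova value of Mt3 rests on 4 UMIs in the bottom quartile. Again all 3 were past 2-fold in both pools, against 1.84% of 6537 genes. In CD4 cells the Mt1 ratios were 0.898 in MC38-Ova (0.735 to 1.1) and 8.06 in B16-Ova, and in innate-like cells 4.93 and 33.8, the last with 1 cell holding 393 of its UMIs. For Mt3 of MC38-Ova innate-like cells the ratio was 0.705 on 7 and 5 UMIs. The members were picked with such contrasts in view, so these counts describe them and support nothing more.

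**Figure D3:**
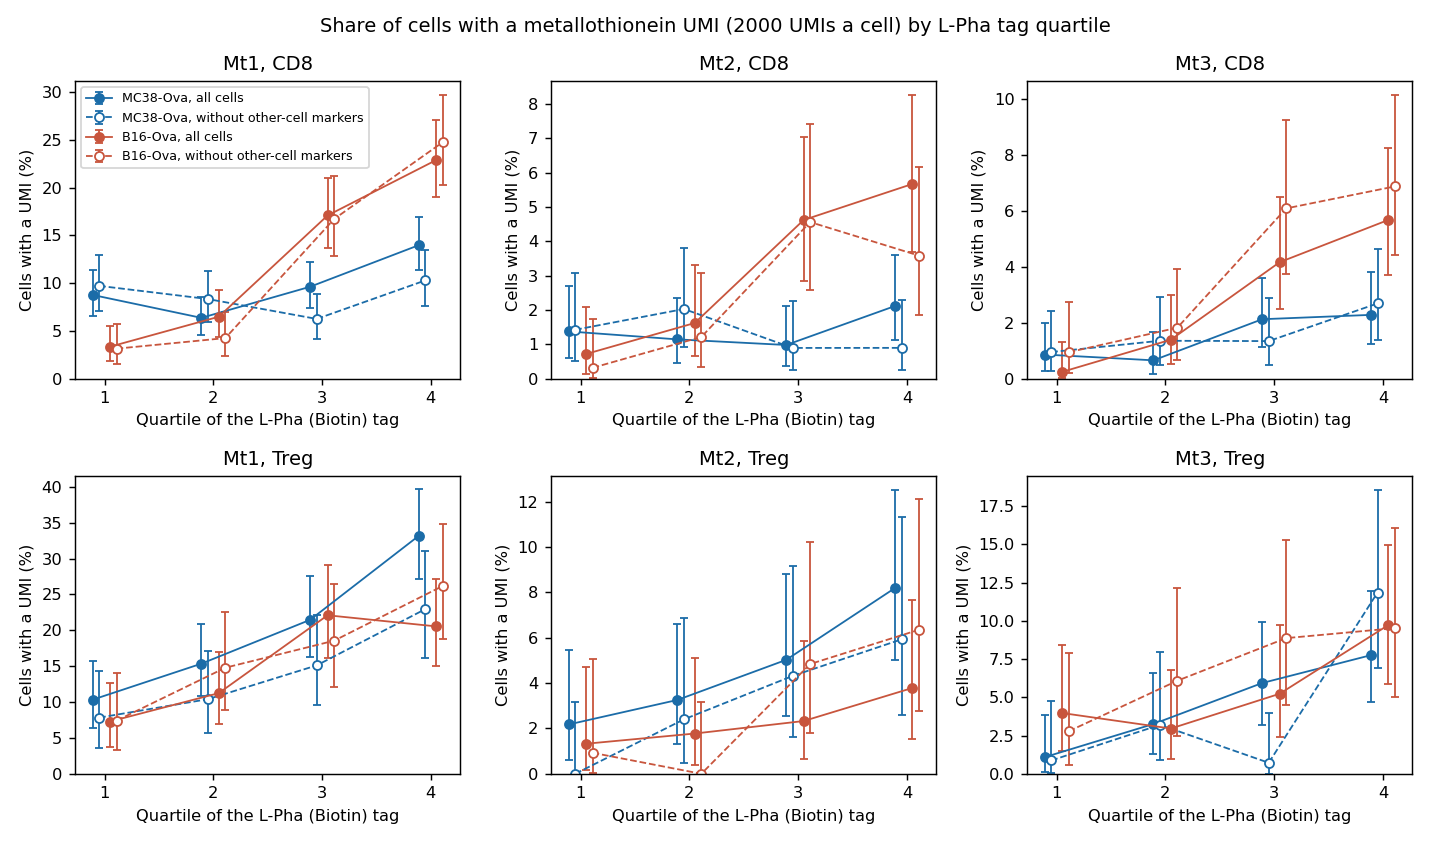
Share of cells with a UMI of each member, at 2000 UMIs per cell, over quartiles of the L-Pha (biotin) tag from low to high (x axis), in CD8 and Treg cells of both pools, for all cells (filled) and without other-cell marker barcodes (open), with exact Clopper-Pearson 95% intervals. Open values come from a separate draw of 2000 UMIs per cell. The Mt1 share of all CD8 cells is 14.0% in the highest and 8.76% in the lowest quartile of MC38-Ova, and 22.9% and 3.34% in those of B16-Ova.

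Among cells without other-cell markers, the Mt1 shares of MC38-Ova CD8 cells over the quartiles in rising order were 9.72%, 8.33%, 6.25% and 10.3%, and those of B16-Ova CD8 cells 3.13%, 4.24%, 16.7% and 24.8%. By this measure the MC38-Ova series did not climb, and the B16-Ova series did. In Treg cells without such barcodes both pools climbed, to 23% in the top against 7.83% in the bottom quartile of MC38-Ova, and to 26.2% against 7.41% in B16-Ova. The Mt2 shares of MC38-Ova CD8 cells without such barcodes were 1.42%, 2.03%, 0.893% and 0.895%. There the top lay below the bottom quartile, with overlapping intervals. Those of B16-Ova CD8 cells were 0.313%, 1.21%, 4.56% and 3.58%.

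Depth and other-cell RNA also differed between these quartiles. The median CD8 cell held 10617.5 RNA UMIs in the top and 4916.5 in the bottom quartile of MC38-Ova, and 13931 and 5391 in those of B16-Ova. Other-cell markers summed to 384 CPM in the top and 153 CPM in the bottom CD8 quartile of MC38-Ova, and to 980 and 130 CPM in those of B16-Ova. When quartiles were cut within deciles of RNA UMIs, so that top and bottom had like depth (medians of 6951 and 6952.5 UMIs in MC38-Ova and of 7377 and 7352 in B16-Ova CD8 cells), the Mt1 ratio of CPM was 1.79 in MC38-Ova and 1.37 in B16-Ova, both under 2-fold. For Mt2 it was 2.71 in MC38-Ova and 1.16 in B16-Ova, and without other-cell markers, at unmatched depth, the MC38-Ova ratio of Mt2 was 1.56, so that the Mt2 call in CD8 cells was lost in either setting. At matched depth, 13.9% of top-quartile and 8.97% of bottom-quartile MC38-Ova CD8 cells had an Mt1 UMI, and 16.2% and 8.94% of those of B16-Ova. For Mt3 the shares were 2.53% in the top and 1.14% in the bottom quartile of MC38-Ova, and 4.52% and 1.38% in those of B16-Ova. Depth-matched Treg cells kept wider gaps. An Mt1 UMI was found in 30.1% of the top and 13.5% of the bottom quartile of MC38-Ova Treg cells, and in 28.8% and 10.1% of those of B16-Ova. Mt3 was found in 7.66% and 2.33% of top and bottom MC38-Ova Treg cells and in 8.59% and 2.25% of those of B16-Ova.

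At matched depth, the share of cells with a UMI was higher in the top L-Pha quartile in 12 of 12 combinations of member, class and pool. It was also higher in 12 of 12 among cells without other-cell markers, where the Mt1 share was 25% in the top and 10.3% in the bottom quartile of MC38-Ova Treg cells and 28.1% and 7.97% in those of B16-Ova. In CD8 cells without other-cell markers the shares were 12.4% and 8.42% in MC38-Ova and 15.8% and 9.06% in B16-Ova. Among cells without other-cell markers, the top and bottom intervals lay apart for Mt1 of Treg cells in both pools and overlapped in every other combination. For Mt1 of CD8 cells they were 9.3% to 16% and 6.08% to 11.3% in MC38-Ova, and 11.9% to 20.3% and 6.24% to 12.6% in B16-Ova. The members were picked with such contrasts in view, and the share of all genes with this direction was not taken. The 12 combinations reuse the same cells for each member, so they are not 12 separate observations. Within deciles, the Mt1 CPM of those MC38-Ova CD8 cells was 77.8 in the top and 78.6 in the bottom quartile, so that there more cells held Mt1 while the summed level was alike.

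For PD1 and TIM3 the same tally at matched depth was 8 and 11 of 12 over all cells and 9 and 8 of 12 without other-cell markers. The difference between the tags was not tested, and the share of all genes with these directions was not taken. In CD8 cells the top over bottom PD1 ratios in MC38-Ova and B16-Ova were 2.91 and 1.59 for Mt1, 3.11 and 2.81 for Mt2, and 2.74 and 4.24 for Mt3, so that Mt2 and Mt3 were past 2-fold in both pools, as were 1.79% of genes. For TIM3 they were 3.16 and 1.57 for Mt1, 3.75 and 1.92 for Mt2, and 3.54 and 4.78 for Mt3, and Mt3 alone was past 2-fold in both, as were 1.11% of genes. Other-cell markers moved the other way in B16-Ova, with 461 CPM in the top and 1203 CPM in the bottom TIM3 quartile. At matched depth the PD1 ratio of Mt2 was 0.835 in MC38-Ova and 1.44 in B16-Ova CD8 cells, so that neither pool was past 2-fold. Mt3 at matched depth stood at 15.7 CPM in the top and 7.79 CPM in the bottom PD1 quartile of MC38-Ova CD8 cells, and at 27.1 and 11.4 CPM in B16-Ova. The Mt3 share ran the other way in MC38-Ova, at 1.85% and 2.12%, and was 5.20% and 1.38% in B16-Ova. The Mt1 ratios of B16-Ova CD8 cells at matched depth were 0.932 for PD1 and 0.730 for TIM3, although the share of cells with an Mt1 UMI was 14.7% in the top and 7.37% in the bottom PD1 quartile, and 16.6% and 8.90% in those of TIM3. Treg cells had PD1 ratios of 1.16 in MC38-Ova and 1.07 in B16-Ova for Mt1, and 0 of 3 members was past 2-fold in both pools (0.174% of genes). The Mt1 share ran the other way, at 18.1% in the top and 23.9% in the bottom quartile of MC38-Ova and 15.9% and 19.8% in those of B16-Ova, and the MC38-Ova ratio at matched depth was 0.657. Their TIM3 ratios for Mt1 were 0.804 in MC38-Ova and 3.27 in B16-Ova, with again 0 of 3 members past 2-fold in both (0.456% of genes). Mt3 of MC38-Ova Treg cells had a PD1 ratio of 3.11 (2.01 to 4.97), beside 1.29 (0.838 to 2.02) in B16-Ova.

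Among CD8 states, cells with granzymes C and F held the highest share of Mt1. States were set by raw UMIs of fixed genes and overlap. Of CD8 cells with 2 or more UMIs of Gzmc and Gzmf together, 18.2% in MC38-Ova (150 cells) and 36.6% in B16-Ova (164 cells) had an Mt1 UMI at 2000 UMIs, against 9.14% and 10.1% of the other CD8 cells of the same pools. Mt2 was found in 3.38% of these cells and 1.27% of the rest in MC38-Ova, and in 11.6% and 2.31% in B16-Ova. Mt3 was found in 1.35% and 1.49% in MC38-Ova, on very few cells of the state, and in 7.93% and 2.37% in B16-Ova. Without other-cell markers the Mt3 shares were 4% and 1.44% in MC38-Ova and 6.78% and 3.68% in B16-Ova, with overlapping intervals in both pools. Cells with 2 or more UMIs of Havcr2, which encodes TIM3, were similar. Their Mt1 share was 13.9% against 8.58% of the rest in MC38-Ova, and 26.9% against 7.58% in B16-Ova, and all 3 members were higher in both pools. Among cells with 2 or more UMIs of the cytokine Ifng, Mt1 was found in 11.8% against 8.62% in MC38-Ova and in 18.6% against 9.44% in B16-Ova. Cells with 2 or more UMIs of Gzma, which encodes granzyme A, differed between pools. Their Mt1 share was 12.3% against 9.31% in MC38-Ova and 9.85% against 12.9% in B16-Ova, where Mt2 and Mt3 were lower as well and all 3 intervals overlapped.

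Naive-like and memory-like CD8 cells lay at the other end. Cells with Tcf7, a factor of memory and stem-like T cells, and no Pdcd1 UMI had an Mt1 share of 5.23% against 11.3% of the rest in MC38-Ova and of 4.08% against 15.5% in B16-Ova. Mt3 was almost missing there, with 14 UMIs in 644 MC38-Ova cells and 3 UMIs in 445 B16-Ova cells, which is 3.0 and 0.95 CPM, against 15.4 and 26.8 CPM in the other CD8 cells of those pools. Where Tcf7 and Pdcd1 occurred together, the Mt1 share was 8.46% against 10% in MC38-Ova and 9.48% against 13.2% in B16-Ova. Cells with Ccr7 or Dapl1 had Mt1 in 7.34% against 10.9% in MC38-Ova and in 7.32% against 16% in B16-Ova. Proliferating CD8 cells, with 10 or more UMIs of a cell cycle list, had Mt1 in 11.5% against 8.30% in MC38-Ova and in 18.0% against 7.51% in B16-Ova.

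In Treg cells the effector marker Klrg1 split the members most evenly. An Mt1 UMI was found in 28.6% of Klrg1+ against 14.2% of other Treg cells in MC38-Ova, and in 21.9% against 10.2% in B16-Ova. The Mt2 shares were 7.27% against 2.80% in MC38-Ova and 3.17% against 1.66% in B16-Ova, and the Mt3 shares 5.97% against 3.66% and 7.62% against 3.87%. Treg cells with 2 or more Gzmb UMIs had Mt1 in 24.5% against 7.81% in MC38-Ova and in 19.9% against 9.09% in B16-Ova. Their Mt3 stood at 52.0 against 10.4 CPM in MC38-Ova and 45.0 against 16.5 CPM in B16-Ova, whereas Mt2 stood at 48.2 against 129 CPM in MC38-Ova and 30.7 against 13.3 CPM in B16-Ova. The MC38-Ova direction of Mt2 turned without other-cell markers, at 33.2 against 10.4 CPM, and its share over all cells was 5.32% against 3.13%. In cells without other-cell markers, the Mt1 shares kept their order. For Gzmc and Gzmf they were 14% against 8.31% in MC38-Ova, with overlapping intervals (7.87% to 22.4% and 7.03% to 9.74%), and 43.2% against 9.29% in B16-Ova. For Tcf7 without Pdcd1 they were 4.68% against 10.1% in MC38-Ova and 2.57% against 15.9% in B16-Ova, and for Klrg1 in Treg cells 20.8% against 10.3% in MC38-Ova and 22.5% against 12.7% in B16-Ova. The Klrg1 intervals of B16-Ova overlapped (17.1% to 28.7% and 8.90% to 17.4%). The effector states held deeper cells, with medians of 12341 against 6809.5 RNA UMIs for Gzmc and Gzmf in MC38-Ova and 16318 against 6973.5 in B16-Ova. Thinning equalises the UMIs drawn, and the part of cell size in these shares was not tested.

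**Figure D4:**
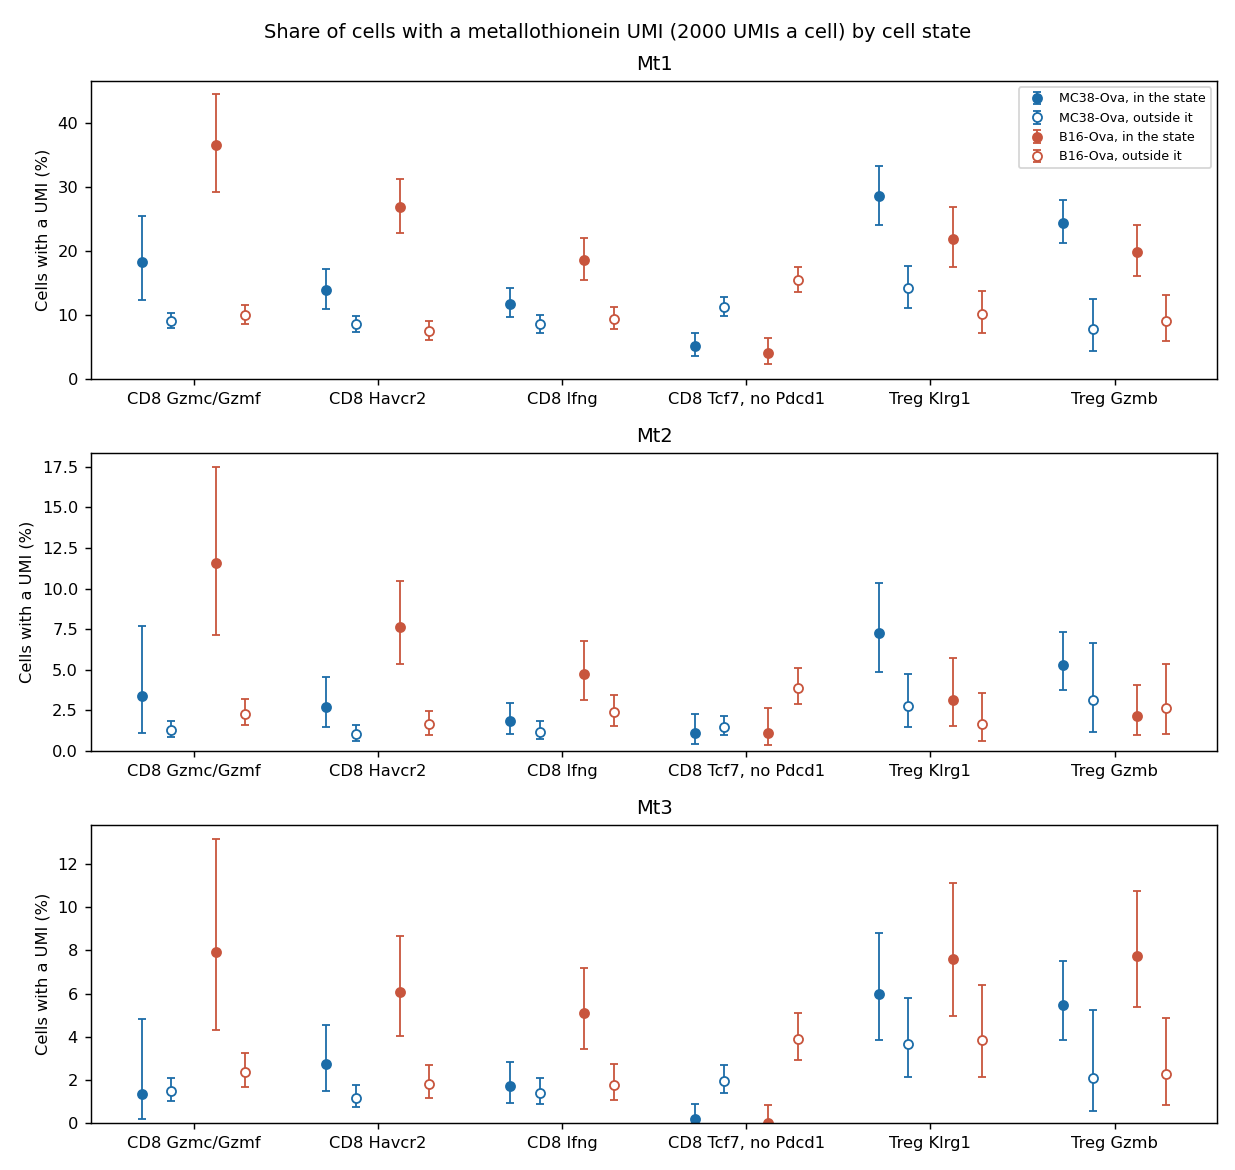
Share of cells with an Mt1, Mt2 or Mt3 UMI at 2000 UMIs per cell, inside and outside each CD8 and Treg state, in both pools, with exact Clopper-Pearson 95% intervals. For Mt1 the widest gap is that of Gzmc and Gzmf in B16-Ova (36.6% inside, 10.1% outside), and Tcf7 cells without Pdcd1 lie on the low side in both pools.

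To see which other genes went with the members, cells with at least 1 metallothionein UMI among 2000 were set against cells with 0. In CD8 cells 290 were with and 2133 without in MC38-Ova, and 273 with and 1452 without in B16-Ova. Those with it were deeper, with medians of 8229.5 against 7113 RNA UMIs in MC38-Ova and 11160 against 7184 in B16-Ova. More of them had 10 or more cell cycle list UMIs, at 56.6% against 42.7% in MC38-Ova and 71.8% against 43.9% in B16-Ova. The part of depth and of cell cycle in the ratios below was not tested. Of 6677 genes with at least 100 thinned UMIs, 1.9% were at least 1.5-fold higher and 2.31% at least 1.5-fold lower in both pools. The leading higher genes over all CD8 cells were H2-Aa, Cd74, H2-Eb1, H2-Ab1, Spp1 and Cd63, of which the first 4 encode MHC class II or its chaperone and mark antigen-presenting cells. Cd74 stood at 359 CPM in cells with and 49.2 CPM in cells without metallothionein in MC38-Ova, and at 159 and 53.0 CPM in B16-Ova. Other-cell markers were also higher in these cells, at 663 against 149 CPM in MC38-Ova and 855 against 367 CPM in B16-Ova. The values below are therefore those of cells without other-cell markers, where 181 MC38-Ova and 209 B16-Ova CD8 cells were with metallothionein, and 1.93% of genes were higher and 2.81% lower by the same limit. Of the 281 genes past the limit over all CD8 cells, 110 were past it here as well.

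Cytotoxic genes led in these cells. Gzmf, Gzmd, Prf1, Nrgn, C1qtnf6 and Gzmc had the largest mean differences upward. Prf1, which encodes perforin, stood at 445 CPM in cells with and 133 CPM in cells without metallothionein in MC38-Ova, and at 675 and 258 CPM in B16-Ova, which is 3.34 and 2.62 times as high. Gzmf was 2.15 times as high in MC38-Ova and 5.64 times in B16-Ova. Of 17 cytotoxic effector genes tested, 5 were past 1.5-fold upward in both pools (Gzmb, Gzme, Gzmf, Prf1 and Fasl) and 0 downward. Gzmb, the granzyme that opens the caspase cascade, was at 3820 against 1684 CPM in MC38-Ova and at 2050 against 1012 CPM in B16-Ova. Of 17 exhaustion genes, 4 were past the limit upward (Pdcd1, Havcr2, Tnfrsf9 and Rgs16) and 0 downward. Havcr2 was 2.16 times as high in MC38-Ova and 2.12 times in B16-Ova, and Pdcd1, which encodes PD-1, 1.51 and 1.54 times.

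Glycolytic and cell cycle genes lay on the same side. Of 21 glycolysis and hypoxia genes 6 were past the limit upward (Slc16a3, Tpi1, Gapdh, Eno1, Pkm and Ero1l), 19 were higher in both pools, and the list's median log2 ratio was 0.54 in MC38-Ova and 0.61 in B16-Ova, beside 0.00 and 0.05 for all genes. Tpi1, triose phosphate isomerase, was at 710 against 403 CPM in MC38-Ova and 495 against 259 CPM in B16-Ova, and Gapdh at 4169 against 2626 CPM in MC38-Ova and 3199 against 2067 CPM in B16-Ova. Of 19 proliferation genes 8 were past the limit upward, among them the thymidine kinase Tk1 (3.07 times in MC38-Ova and 1.90 times in B16-Ova) and the cyclin Ccna2 (2.45 and 1.69 times).

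Memory and interferon genes lay lower in CD8 cells with metallothionein. Tcf7 and Ccr7 of the naive and memory list were past the limit downward, with Ccr7, a lymph node homing receptor, at 0.25 times in MC38-Ova and 0.45 times in B16-Ova, and Tcf7 at 0.67 and 0.29 times. Of 16 interferon-response genes 15 were lower in both pools and 6 past the limit (Ifit1, Oasl2, Rtp4, Gbp2, Mx1 and Rsad2). Gbp2, a guanylate-binding protein, was at 47.0 against 110 CPM in MC38-Ova and 59.8 against 133 CPM in B16-Ova. Cells set apart by 10 or more UMIs of the interferon list did not follow that direction in both pools. Among CD8 cells without other-cell markers, those with the interferon state had Mt1 at 52.5 against 95.6 CPM of the rest in MC38-Ova and at 148 against 109 CPM in B16-Ova, with shares of 6.89% against 11.4% in MC38-Ova and of 12.9% against 11.8% in B16-Ova. The leading lower genes were Samd3, Gm20186, Rsad2, Treml2, Cop1 and Tmem108. Cells that hold more of some transcripts hold less of all others at a fixed number of UMIs, and all ratios here share that limit.

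In CD8 cells, no zinc or copper gene of the lists was past the limit with 1 metallothionein UMI as the criterion. With 2 UMIs the zinc importer Slc39a1 was past it upward, as were 4.47% of genes. Of 4 metal-sensing and zinc export genes with enough counts, 0 were past 1.5-fold in both pools in CD8 cells, with or without the other-cell marker barcodes. The same count of 0 was found for 6 copper-handling genes and for 4 zinc importers over all CD8 cells. Of all genes there, 1.9% were past the limit upward and 2.31% downward, and 0 of so few genes is near that share. In both pools 3 metal-sensing and zinc export genes were higher and 1 lower, and 4 copper-handling genes higher and 0 lower. Of all genes 31.9% were higher and 27.7% lower. Without other-cell markers these counts were 2 and 1, and 3 and 1 of 5 copper-handling genes. Mtf1, which encodes the zinc sensor that drives Mt1 and Mt2, lay between 17.5 and 25.2 CPM in all 8 class and pool groups, and Slc30a1, a zinc exporter that is a known MTF1 target, between 2.78 and 6.80 CPM. Of 10 glucocorticoid response genes 0 were past the limit upward and 1, Klf9, downward over all CD8 cells. Of 13 oxidative stress genes 1, Hmox1, was past it upward over all CD8 cells. Among cells without other-cell markers Hmox1 was under the count minimum, and Nfe2l2 was past the limit downward. Of 15 dissociation stress genes, such as immediate early genes, 0 were past it.

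**Figure D5:**
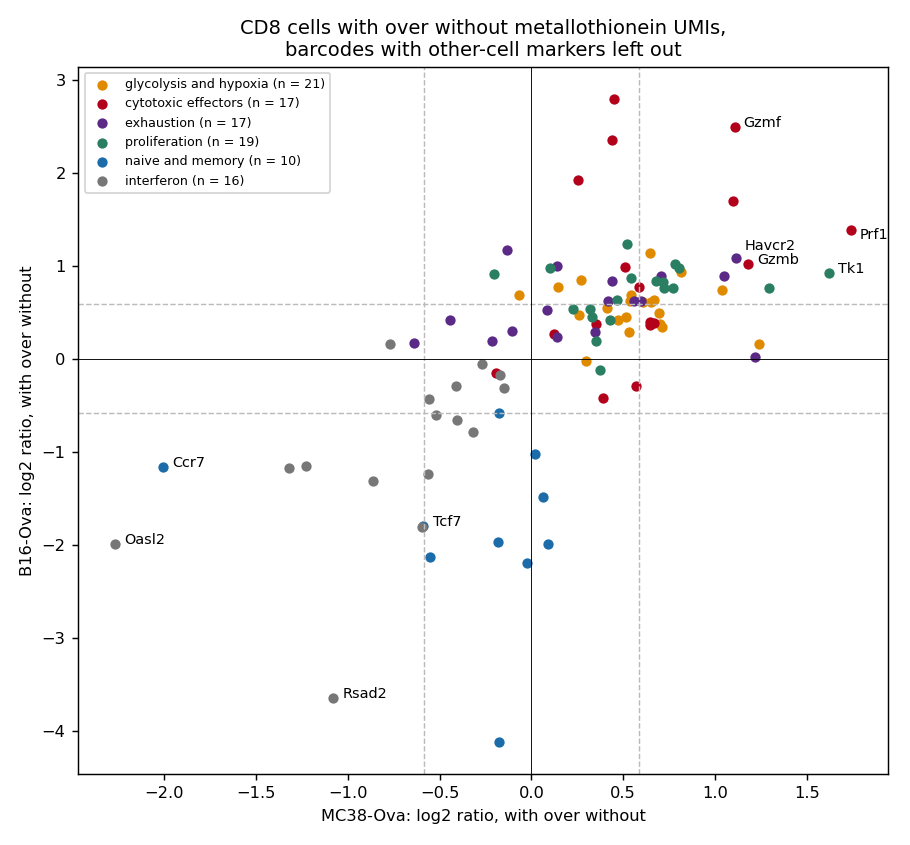
Ratio (log2) of cells with over cells without a metallothionein UMI in CD8 cells without other-cell markers, for the genes of 6 lists, with MC38-Ova on the x axis, B16-Ova on the y axis and dashed lines at 1.5-fold. Most glycolysis, cytotoxic, exhaustion and proliferation genes lie in the upper right, and 15 of 16 interferon genes in the lower left.

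Treg cells with metallothionein showed fewer differences. In MC38-Ova 203 and in B16-Ova 136 Treg cells had a metallothionein UMI, and 0.741% of 4049 genes were past 1.5-fold upward and 1.53% downward in both pools. Treg cells with metallothionein had medians of 7515 against 6033 RNA UMIs in MC38-Ova and 6913 against 6385 in B16-Ova. Bnip3, a hypoxia-induced mitophagy gene, was 2.00 times as high in MC38-Ova and 1.82 times in B16-Ova, and it was the 1 of 22 glycolysis and hypoxia genes past the limit. The chemokine Ccl4 was 2.45 times as high in MC38-Ova and 2.05 times in B16-Ova, and without other-cell markers 4.02 and 2.48 times. Tcf7 was at 0.37 and Ccr7 at 0.49 times in MC38-Ova, and at 0.21 and 0.28 times in B16-Ova. Of 16 effector Treg genes 0 were past the limit over all Treg cells and 12 were higher in both pools. Without other-cell markers 1 was past it, Klrg1, at 1.71 times in MC38-Ova and 1.89 times in B16-Ova. The leading higher genes over all Treg cells were Plek, Mcm5, Ccl4, Rrm2, Polr3k and Rapsn, and the leading lower ones Trbv20, Klra7, Tcf7, Tox, Trbv13-1 and Dck. Other-cell markers stood at 1527 against 383 CPM in MC38-Ova and 1196 against 209 CPM in B16-Ova Treg cells with and without metallothionein.

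Mt1 and Mt2 occurred in the same cells, and Mt3 less closely with them. Among MC38-Ova CD8 cells with an Mt2 UMI, 38.2% (13 of 34) also had an Mt1 UMI, against 9.29% of those without Mt2. In B16-Ova CD8 cells this was 58.2% (32 of 55) against 11.1%. In Treg cells it was 73.2% (30 of 41) against 18.0% in MC38-Ova and 56.2% (9 of 16) against 14.7% in B16-Ova. Among cells with Mt3 the Mt1 share was 19.4% against 9.55% in MC38-Ova CD8 cells, 30% against 12.1% in B16-Ova CD8 cells, 55% against 19% in MC38-Ova Treg cells and 23.7% against 15.2% in B16-Ova Treg cells. Of cells with Mt3, 0 of 36 MC38-Ova CD8 cells had an Mt2 UMI, against 1.42% of those without Mt3. In B16-Ova CD8 cells the Mt2 share was 10% (5 of 50) against 2.99%. In Treg cells it was 7.5% against 4.69% in MC38-Ova and 5.26% against 2.19% in B16-Ova. The intervals with and without Mt3 overlapped in each of these pairs. In cells without other-cell markers the Mt1 share among Mt2 cells was 30.4% against 8.34% in MC38-Ova and 46.9% against 11.5% in B16-Ova CD8 cells.

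Over 32 sums by class, pool and PD1 quartile, Mt2 was the gene most like Mt1 among 8003 genes with at least 500 UMIs (Pearson r = 0.894 of log2(CPM + 10), given as a description, since the sums share 1 capture and the same depth differences). Mt3 correlated with Mt1 at 0.545 and with Mt2 at 0.519, and Mt3 stood at rank 488 of the genes most like Mt1. The sums include barcodes with other-cell markers, and likeness was not taken without them. In B16-Ova innate-like cells, 1 such barcode held 393 Mt1, 47 Mt2 and 0 Mt3 UMIs. The part of such barcodes in these correlations was not tested. After Mt2, the genes most like Mt1 were Hint1, Gnb1, Scpep1, Ywhae, Hdlbp, Laptm4b and Tpi1 (0.805 to 0.835). Those most like Mt2 were Mt1, Galk1, Hint1, Prdx1, Nenf, Tmem101, Crtap and Pdia6. Mt3 was most like Arl6ip1 (0.926), Cmtm7, Rnpep, Ap2s1, Prdm1, Rhof, Psmb9 and Chmp2a (0.903), among them Prdm1, which encodes the effector factor Blimp-1. Besides each other, the lists of Mt1 and Mt2 shared Hint1, and the list of Mt3 shared 0 genes with either. With sums by L-Pha quartile, 2 of the 8 genes of Mt1, 5 of Mt2 and 3 of Mt3 were again in the first 8.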

How the data were processed

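Gene and tag counts of 1 droplet capture were analysed. The authors deposited raw UMI counts per gene and tag and barcode, not normalized. Per the submitters' processing notes, Cell Ranger 3.1.0, R 3.6.1, Seurat 3.1.0 and the mm10 build were used; the matrix header names software version 3.0.2. The labels' protocols name both 5′ and 3′ chemistry, and only MC38-OVA in the growth protocol. T cell receptor reads were not used here, and the table had 0 other columns.

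From the counts, cells were filtered and classed by the rules in the text, with no doublets removed (Scrublet scores served as an alternative). UMIs were summed per group and given as CPM with exact Poisson 95% intervals, shares with exact Clopper-Pearson intervals at 2000 UMIs per cell, which left out 121 MC38-Ova and 67 B16-Ova CD8 cells and 110 and 100 Treg cells, and ratios with exact conditional intervals. Intervals cover counting error only. Background shares count genes with at least 100 UMIs past 2-fold, or 1.5-fold for cells with over without metallothionein. No p-value was computed, since each tumour is 1 pool. Members and lists were chosen with earlier results of these data known. A gene of the naive and memory list is not reported here. Named genes are the members, the largest changes of each list, the 6 largest ratios in each direction and the 8 genes most alike. Likeness used log2(CPM + 10). The comparison of cells with and without metallothionein was tested on simulated data. Tools were numpy 2.4.6, scipy 1.17.1, pandas 2.3.3, matplotlib 3.10.9 and, for Scrublet, scanpy 1.11.5. Sequences came from RefSeq (GRCm38.p6), where all 3 members were matched, and transcripts from GENCODE.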

Additional observations from a re-analysis of the deposited data

Results flagged for a closer look

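The tumour ratios of the members pointed in opposite directions in CD8 and Treg cells, and the difference between the classes was not tested, since each tumour is 1 pool. For Mt1 the MC38-Ova over B16-Ova ratio was 0.573 in CD8 and 1.94 in Treg cells. It was 0.560 and 2.59 in the same classes for Mt2, and 0.572 and 1.22 for Mt3. Without barcodes with 2 or more other-cell marker UMIs, the CD8 ratios of Mt1, Mt2 and Mt3 were 0.499, 0.353 and 0.452 and the Treg ratios 0.898, 1.12 and 1.09, so that the members remained lower in MC38-Ova CD8 cells while Mt1 of Treg cells changed direction. Without the richest 1% of cells the Mt3 ratio of Treg cells was 0.999.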

How the results depend on the processing

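No paired analysis was possible because each tumour was 1 pool, and no replicate could be left out for the same reason. Over the alternatives run, the 1206 ratios of members (tumour, tag and state) gave 884 values inside the interval of the reported value, 285 outside it in the same direction and 37 in reverse. Leaving out the 10% highest Scrublet scores, asking for 1000 genes or 5% mitochondrial UMIs, or scaling by median of ratios left all 18 tumour and L-Pha ratios of CD8 and Treg cells inside their intervals. The values that moved in the main tumour and L-Pha ratios, and all that reversed, follow, and the cause was not tested. MC38 and B16 stand for the MC38-Ova and B16-Ova pools. With stricter class limits, the tumour ratios were Mt1 0.538 (CD8), Mt3 1.55 (Treg), Mt1 3.17 (innate-like). With stricter class limits, the PD1 ratios were Mt1 0.983 (Treg MC38). With stricter class limits, the L-Pha ratios were Mt1 1.99, Mt2 2.39 and Mt3 6.17 (Treg MC38), Mt1 3.65 (Treg B16). Without other-cell marker barcodes, the tumour ratios were Mt1 0.499, Mt2 0.353 and Mt3 0.452 (CD8), Mt1 0.898 and Mt2 1.12 (Treg). Without other-cell marker barcodes, the PD1 ratios were Mt1 0.971 (Treg MC38). Without other-cell marker barcodes, the TIM3 ratios were Mt1 1.02 (Treg MC38). Without other-cell marker barcodes, the L-Pha ratios were Mt1 1.45 and Mt2 1.56 (CD8 MC38), Mt1 5.78 (Treg MC38), Mt1 8.91 (Treg B16). Without other-cell marker barcodes, the state ratios were Mt2 3.19 (Gzmb 2 or more in Treg MC38), Mt2 0.902 (interferon list 10 or more in Treg MC38). As the mean of per-cell CPM, the tumour ratios were Mt1 0.744 and Mt2 0.668 (CD8), Mt1 1.63 and Mt2 1.76 (Treg). As the mean of per-cell CPM, the L-Pha ratios were Mt1 6.57 (CD8 B16). As the mean of per-cell CPM, the state ratios were Mt2 1.36 (Gzmb 2 or more in Treg MC38). Without the richest 1% of cells, the tumour ratios were Mt2 0.341 and Mt3 0.419 (CD8), Mt1 2.1 and Mt3 0.999 (Treg). Without the richest 1% of cells, the TIM3 ratios were Mt1 1.01 (Treg MC38). Without the richest 1% of cells, the L-Pha ratios were Mt1 7.53 and Mt2 9.06 (Treg MC38). With 1 hashtag at 10 or more times the other, the tumour ratios were Mt1 1.4 and Mt2 2.01 (Treg), Mt1 6.27 (innate-like). With 1 hashtag at 10 or more times the other, the PD1 ratios were Mt1 0.923 (CD8 B16), Mt1 0.747 and Mt2 0.57 (Treg MC38). With 1 hashtag at 10 or more times the other, the TIM3 ratios were Mt1 1.05 (Treg MC38), Mt3 0.837 (Treg B16). With 1 hashtag at 10 or more times the other, the L-Pha ratios were Mt1 2.36 and Mt2 2.55 (Treg MC38), Mt1 3.22 (Treg B16). With 1 hashtag at 10 or more times the other, the state ratios were Mt1 0.799 (Gzma 2 or more in CD8 MC38), Mt1 1.02 (Ccr7+Dapl1 1 or more in CD8 B16), Mt1 1.09 (Tcf7 without Pdcd1 in CD8 B16). With tags per hashtag UMI, the PD1 ratios were Mt1 0.912 and Mt2 0.596 (CD8 MC38), Mt1 0.659, Mt2 0.669 and Mt3 0.67 (Treg MC38). With tags per hashtag UMI, the TIM3 ratios were Mt1 0.923 and Mt2 0.602 (CD8 MC38), Mt1 0.78 and Mt2 0.877 (CD8 B16), Mt2 0.815 and Mt3 0.448 (Treg B16). With tags per hashtag UMI, the L-Pha ratios were Mt1 1.83 (CD8 MC38), Mt1 8.68 (CD8 B16), Mt3 2.23 (Treg B16). Within RNA deciles, the PD1 ratios were Mt2 0.835 (CD8 MC38), Mt1 0.932 (CD8 B16), Mt1 0.657 and Mt2 0.973 (Treg MC38). Within RNA deciles, the TIM3 ratios were Mt1 0.73 and Mt2 0.815 (CD8 B16), Mt3 0.872 (Treg B16). Within RNA deciles, the L-Pha ratios were Mt1 1.79 (CD8 MC38), Mt1 1.37, Mt2 1.16 and Mt3 3 (CD8 B16), Mt1 2.86 and Mt3 3.07 (Treg MC38). With 1 UMI as the minimum, 2071 CD8 and 1864 Treg genes differed 2-fold between tumours, and at 1.5-fold 1090 and 683, beside 359 and 241 as reported. With 2 metallothionein UMIs as the limit, 783 CD8 and 224 Treg genes were past 1.5-fold, beside 281 and 92. With 1000 and 4000 UMIs per cell, 16 and 20 of the 24 shares moved, since more UMIs find more cells. Depth limits Mt2 and Mt3 most, since few cells held a UMI at 2000.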
